A study of Mus musculus with 2 samples.

Results

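Chemokines and chemokine receptors were followed through the cells of a pair of mouse abdominal sympathetic ganglia, the celiac ganglion and the superior mesenteric ganglion. The set holds 10 of the 32183 genes in the count tables: the CXC ligands Cxcl1, Cxcl2, Cxcl12 and Cxcl13, the CC ligands Ccl2, Ccl4 and Ccl11, the CX3C ligand Cx3cl1, its receptor Cx3cr1, and Ackr3, an atypical receptor. They were taken by name from both tables and described across cell classes that were set by other markers. The study made 2 single-cell libraries (CGSMG1 and CGSMG2, here library 1 and library 2) with 10x Genomics 3′ v3.1 chemistry from digested and triturated ganglia. Both belong to 1 group: the sources used here name no genotype, strain or treatment. The series used 20 mice of 7 to 8 weeks, with males and females equally represented. Which animals entered which library is not given, so the spread between these libraries may be technical. The p-values rest mostly on a spread shared across genes and on counting error, and do not measure spread between animals.

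Chemokines are small secreted proteins that steer leukocytes by binding G protein-coupled receptors on them. CXC ligands such as Cxcl1 and Cxcl2 recruit neutrophils, Cxcl13 attracts B cells, and Cxcl12 retains blood-forming and immune cells through Cxcr4. CC ligands recruit monocytes (Ccl2), macrophages and T cells (Ccl4) and eosinophils (Ccl11), whereas Cx3cl1 is made as a membrane-anchored ligand for Cx3cr1 on monocytes and tissue macrophages. Ackr3 binds Cxcl12 and takes it up without signalling through G proteins. These ganglia are sympathetic relays to the abdominal organs, and their neurons lie among satellite glia, Schwann cells, connective tissue, vessels and resident immune cells.

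The libraries were alike in depth, with 94521010 and 95235439 unique molecular identifiers (UMIs, counted transcript molecules) and medians of 6483 and 6498 UMIs per barcode. Members took 105199 and 94272 of these UMIs. After doublet removal, 12033 and 11654 cells formed 25 clusters, of which 24 were assigned to 15 classes. A class name stands for cells like that type by markers, since the names were rebuilt here. Chemokine and receptor genes had no part in clustering or naming, and the UMIs of every cell were divided by chance into a portion for clustering and a portion for levels and tests. All glial clusters carried markers of both satellite glia and non-myelinating Schwann cells and were divided by which list was relatively higher, a rule set after the values were seen. Between the libraries, 64 barcode sequences were shared. Of these, 60 were kept in both, and 14 of the 60 fell in the same class in both. Without the shared barcodes, an alternative chosen after seeing the data, each of the 10 members kept its leading class, and its mean level there moved by -0.428% to 1.49%. Levels below are CPM, the UMIs of a gene scaled to all UMIs of the class in that library.

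Cxcl1 and Cxcl2 stand first because their start regions could be read beside their levels. Both encode ligands of Cxcr2, and their starts lie 12.63 kb apart on the same strand of chromosome 5. Cxcl1 spans chr5:90891241-90893115 and Cxcl2 spans chr5:90903871-90905938 (GENCODE M21 on GRCm38, the assembly of mm10). The 120 bases before the RefSeq start of each gene, and of their close paralog Cxcl3, are shown for comparison on the plus strand (RefSeq, GRCm38.p6). Capitals mark matches to GGGNNNTTCC, a motif of the NF-kB type, on either strand and with overlapping matches joined.
Cxcl1, chr5:90891125-90891244: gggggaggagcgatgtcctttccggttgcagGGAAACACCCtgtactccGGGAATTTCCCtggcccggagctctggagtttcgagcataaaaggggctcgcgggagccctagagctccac
Cxcl2, chr5:90903779-90903898: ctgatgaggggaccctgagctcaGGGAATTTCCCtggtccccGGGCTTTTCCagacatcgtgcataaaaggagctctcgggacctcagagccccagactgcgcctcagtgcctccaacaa
Cxcl3, chr5:90785981-90786100: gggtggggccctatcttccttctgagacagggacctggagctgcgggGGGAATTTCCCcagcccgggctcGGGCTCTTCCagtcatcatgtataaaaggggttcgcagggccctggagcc
Each of the 3 windows held 3 matches. Of these, GGGAATTTCC and GGAATTTCCC overlap on opposite strands, so the matches outnumber the separate sites. The match GGGAATTTCC began 71 bases before the RefSeq start in Cxcl1, 97 in Cxcl2 and 73 in Cxcl3. The GENCODE starts of Cxcl1 and Cxcl2 lie inside the printed stretches, so these distances depend on the start used. Within the 250 bases before a start, the motif occurred in 1434 of 27025 genes (5.31%) and in 9 of the 48 listed chemokine ligands and receptors matched there. Of the 7 members matched in the RefSeq table, Cxcl1 and Cxcl2 held it, and Cxcl12, Cxcl13, Cx3cl1, Cx3cr1 and Ackr3 did not. Ccl2, Ccl4 and Ccl11 were not matched.

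The neighbours shared a motif but not a leading class. Cxcl2 stood at 1326 CPM in macrophages of library 1 and 1284 CPM in those of library 2, and macrophages held 92.0% and 90.4% of its UMIs. Proliferating cells followed with 248 and 268 CPM. This class (24 and 36 cells) was named by cell-cycle genes such as Top2a and Mki67, which do not name a lineage. Dividing macrophages among its cells are not excluded, which limits the steps of Cxcl2, Ccl4 and Cx3cr1 against it. Mast cells had 0 CPM in library 1 and 471 CPM in library 2, so their place in the order is not settled by these libraries. Cxcl1 was led by fibroblasts, with 229 CPM in both libraries and 64.9% and 74.8% of its UMIs. Pericytes, the contractile cells of small vessels, had 192 and 97.5 CPM of Cxcl1 and overlapped macrophages, which had 134 and 77.1 CPM. Cxcl3 gave 4 and 3 UMIs in macrophages, and these were its only UMIs in the tested set. Reads of Cxcl2 and Cxcl3 can be hard to place, since 10.9% of the 31-base words in the last 500 bases of Cxcl2 transcripts also occur in Cxcl3, whereas the Cxcl1 end shared none with another gene.

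Between its leading classes, Cxcl2 was higher in macrophages than in proliferating cells by 2.64 ± 0.170 log2 units (SE, n = 2 libraries, edgeR adjusted p 3.92e-26, where 22.2% of all genes tested were called). DESeq2 gave 2.41 with an adjusted p of 0.147. Cxcl1 was higher in fibroblasts than in pericytes by 0.94 ± 0.140 (edgeR adjusted p 1.32e-08, with 28.5% of genes called), and DESeq2 gave 0.89 with an adjusted p of 0.0669. Library 1 alone gave 0.51 and library 2 alone 1.47 for this Cxcl1 step. A UMI of Cxcl2 was found in 41.3% (95% interval 38.4 to 44.2) and 39.0% (36.1 to 41.9) of macrophages, and the 10% of macrophages with most of it held 72.7% and 74.7% of its UMIs. In fibroblasts 27.5% and 26.3% held a UMI of Cxcl1, and the top 10% held 83.0% and 84.0%. Satellite glia, taken as a class that should lack these genes, held Cxcl2 in 3.29% and 2.11% of cells and Cxcl1 in 2.76% and 1.22%. Median depths were 7899.5 and 7885 UMIs in macrophages, 7927 and 8375 in fibroblasts and 6468 and 6523 in satellite glia. After thinning every cell to 1500 UMIs, Cxcl2 was found in 29.9% and 28.6% of macrophages and in 0.742% and 0.370% of satellite glia. Intervals here are exact binomial ones and cover counting error only.

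Both genes are known to respond within hours to stimulation, so the summed levels of response genes are given beside them. The 20 immediate early genes on the list summed to 15022 and 14938 CPM in macrophages and 12765 and 13432 CPM in fibroblasts, against 2316 and 2023 CPM in satellite glia and 1631 and 1166 CPM in neurons. The list includes the heat-shock genes Hspa1a and Hspa1b, so the make-up of the sums differs between classes. Hspa1a was highest in macrophages, satellite glia and both Schwann classes, whereas Jun, Fos and Egr1 were highest in fibroblasts. Blood endothelial cells had a higher sum than macrophages or fibroblasts, 17878 and 18077 CPM, with 3.45 and 4.40 CPM of Cxcl2 and 33.3 and 39.6 CPM of Cxcl1. Myelinating Schwann cells summed to 13211 and 13716 CPM with 9.20 and 4.25 CPM of Cxcl1. The 16 listed NF-kB response genes summed to 3544 and 3693 CPM in macrophages, 2024 and 2023 CPM in fibroblasts, 2655 and 2804 CPM in blood endothelial cells and 765 and 746 CPM in satellite glia. Mast cells led both lists, with 35821 and 30124 CPM of immediate early genes (Junb, Fos and Jun highest) and 6635 and 5880.3 CPM of NF-kB response genes (Nfkbia, Nfkbiz and Nfkb1 highest). The part of tissue handling in the levels of the inducible chemokines was not tested.

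**Figure D1:**
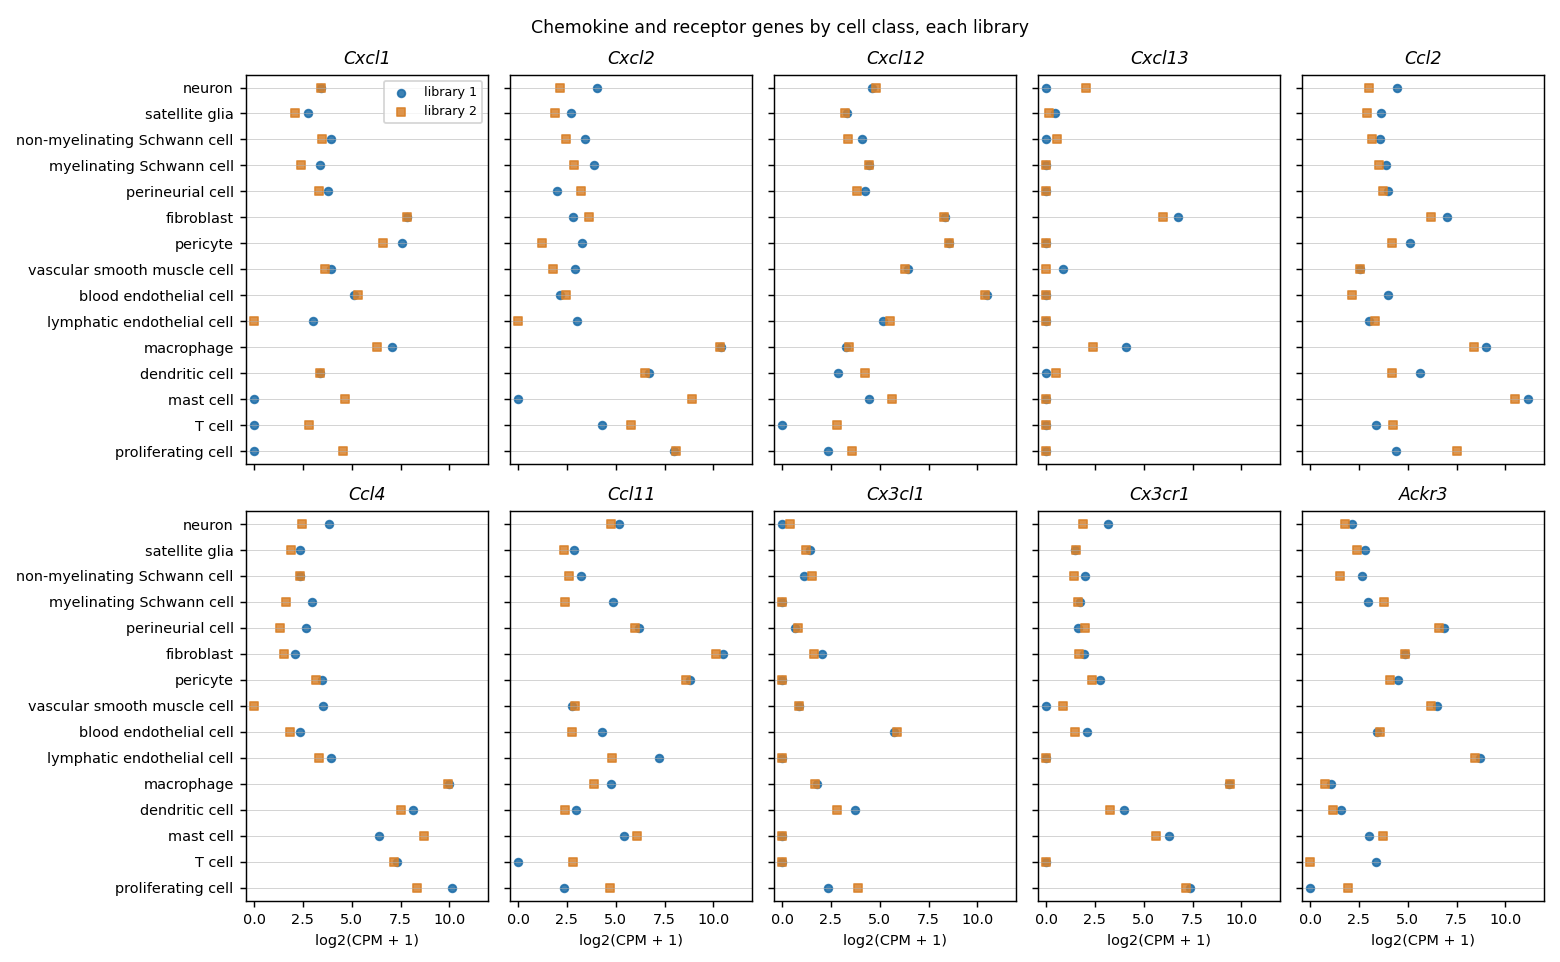
Levels of the 10 genes in 15 cell classes, as log2(CPM + 1) on the horizontal axis, with library 1 as circles and library 2 as squares. Cxcl2, Ccl4 and Cx3cr1 are highest in macrophages or overlap there, Ccl11, Cxcl13 and Cxcl1 in fibroblasts, Cxcl12 and Cx3cl1 in blood endothelial cells, Ccl2 in mast cells and Ackr3 in lymphatic endothelial cells.

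Neural cells of the ganglion carried little of any member. Each of the 11 classes with at least 100 cells per library was compared with all other cells, which gave 110 tests of members. Of these, 20 were higher in the class (18.2%, where all genes gave 25.2%) and 87 were lower (79.1%, against 30%). Scaling by library totals in place of TMM changed the split over all genes to 19.8% higher and 36.9% lower, with 19 and 88 member calls. Other listed ligands and receptors were higher in 63 of 406 tests (15.5%) and lower in 249 (61.3%). In neurons, satellite glia and non-myelinating Schwann cells 10 of 10 members were lower, with medians of -3.72, -5.11 and -4.29 log2 units against medians over all genes of -0.10, -0.02 and -0.01. Of all genes, 37.8%, 38.4% and 29.7% were lower in these comparisons. In myelinating Schwann cells 9 of 10 were lower (15.4% of all genes), and Ackr3 did not pass there, at -1.02 ± 0.459 with an edgeR adjusted p of 0.116. Neurons had a median depth of 2343 and 2373 UMIs per cell, the lowest of the 15 classes.

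Members higher than in the rest of the tissue fell into stromal, vascular and myeloid classes. Fibroblasts had 6 of 10 higher (Cxcl12, Ccl11, Cxcl1, Cxcl13, Ccl2 and Ackr3) where 34% of all genes were higher. Macrophages had 5 of 10 higher (Cxcl1, Cxcl2, Ccl2, Ccl4 and Cx3cr1, with 31.8% of all genes higher). Pericytes had 3 (Cxcl12, Ccl11 and Cxcl1, 10.8%), blood endothelial cells 2 (Cxcl12 and Cx3cl1, 29.6%) and dendritic cells 2 (Ccl4 and Cx3cl1, 27.5%). Vascular smooth muscle cells and perineurial cells had Ackr3 alone (18.1% and 25.5%). With so many genes called in the large classes, the counts describe where members lie and do not set them apart from other genes.

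Cxcl12, a homeostatic ligand of Cxcr4, was highest in vessels and their pericytes. Blood endothelial cells had 1446 and 1337 CPM and held 61.3% and 58.1% of all its UMIs. Pericytes came next with 369 and 369.7 CPM, then fibroblasts with 327 and 309.6 CPM and 30.9% and 33.8% of the UMIs. Vascular smooth muscle cells had 87.6 and 78.4 CPM, and no neighbours among these 4 classes overlapped between libraries. Pericytes and fibroblasts were not told apart by the model (0.04 ± 0.0940 log2 units for fibroblasts over pericytes, edgeR adjusted p 0.824), although their CPM ranges were apart. Blood endothelial cells exceeded pericytes by 2.11 ± 0.0858 log2 units (edgeR adjusted p 5.53e-42, with 33.7% of genes called). A UMI of Cxcl12 was present in 78.8% (76.1 to 81.3) and 79.1% (76.3 to 81.8) of endothelial cells, against 5.83% and 4.51% of satellite glia. The gene lies at chr6:117168535-117181367 on the plus strand.

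Endothelial subclusters differed several-fold in Cxcl12. Arterial endothelial cells (41 and 43 cells) had 1271 and 1467 CPM, and venous endothelial cells (172 and 181 cells) had 282 and 309 CPM, a difference of 1.99 ± 0.117 log2 units (edgeR adjusted p 5.56e-26). Of the 4 members that passed the count filter in this comparison, 3 were called, where 18.4% of all genes were. Ackr3 was higher in arterial cells by 2.71 ± 0.820 (edgeR adjusted p 0.0105), with 60.2 against 1.01 CPM in library 1 and 16.9 against 7.85 CPM in library 2. Library 1 alone gave 4.79 for this difference and library 2 alone 0.81, so its size rests largely on library 1. Cxcl1 went the other way, at 15.04 and 11.2 CPM in arterial and 47.7 and 86.4 CPM in venous cells (-2.60 ± 0.589, edgeR adjusted p 3.79e-04, -1.83 in library 1 and -3.05 in library 2). The Ackr3 and Cxcl1 levels of arterial cells rest on few UMIs, since these cells number 41 and 43 at a median depth of 5739 UMIs. Venous cells also had the highest sum of immediate early genes among endothelial subclusters, at 25378 and 25876 CPM, against 13676.5 and 11693 CPM in arterial cells. The part of these response genes in the Cxcl1 difference was not tested. Cx3cl1 did not pass, at -0.29 ± 0.396 with an adjusted p of 0.703, and Ackr1, an atypical receptor of venules, was lower in arterial cells.

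The highest Cxcl12 level of any subcluster lay elsewhere. A subcluster of 85 and 69 endothelial cells with interferon-response markers, led by Mt2 and Mfsd2a, a lipid transporter of barrier-forming capillaries, had 4307 and 4428 CPM. The 3 largest unnamed endothelial subclusters had 1304 and 1070.3 CPM, 1722 and 1796 CPM, and 1176 and 1027 CPM. The interferon-marked subcluster lay above all of these in both libraries. No test of that subcluster was planned, so its level is a description. A further subcluster of 24 endothelial cells led by fibroblast genes such as Dcn carried 794 and 47.2 CPM of Ccl11, and the part of mixed droplets in that level was not tested.

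Cxcl13, the ligand that draws B cells into lymphoid follicles, was a rare fibroblast transcript. Fibroblasts had 106 and 63.5 CPM and held 92.4% and 95.1% of its UMIs, and macrophages followed with 16.0 and 4.25 CPM. The macrophage class included a subcluster of 49 cells led by fibroblast genes such as Dcn and Lum. The part of mixed droplets in the macrophage level was not tested. Fibroblasts exceeded macrophages by 2.93 ± 0.155 log2 units in edgeR (adjusted p 2.60e-32, with 60.6% of genes called), by 2.53 in library 1 and 3.54 in library 2. DESeq2 gave 3.02 with an adjusted p of 0.783. A UMI of Cxcl13 was found in 2.95% (2.30 to 3.74) and 3.23% (2.54 to 4.03) of fibroblasts and in 0.353% and 0.111% of satellite glia. Single fibroblasts reached 352 and 125 UMIs. The gene lies at chr5:95956951-95961068.

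Ccl11, the eosinophil attractant eotaxin, was found in most fibroblasts. Its level was 1427 and 1122 CPM there, with 92.6% and 93.8% of its UMIs. Pericytes had 453 and 391 CPM, and every other class was lower in both libraries. Lymphatic endothelial cells, with 148 and 27.2 CPM, overlapped perineurial cells, the sheath cells of nerve bundles, with 71.4 and 62.3 CPM. The step from pericytes to fibroblasts was 1.85 ± 0.0891 log2 units (edgeR adjusted p 7.35e-36). A UMI of Ccl11 was present in 90.4% (89.1 to 91.6) and 88.4% (87.0 to 89.7) of fibroblasts against 4.28% and 2.63% of satellite glia. Unlike Cxcl1, Ccl11 was spread over the class: the top 10% of fibroblasts held 32.0% and 32.2% of its UMIs.

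Ccl2, the main monocyte attractant, was highest in a small class. Mast cells (62 and 64 cells) had 2296 and 1426 CPM, macrophages 520 and 332 CPM and fibroblasts 127 and 71.6 CPM. Mast cells nevertheless held 7.56% and 8.59% of the Ccl2 UMIs, macrophages 54.7% and 54.8% and fibroblasts 26.5% and 25.6%. Mast cells exceeded macrophages by 1.80 ± 0.124 log2 units (edgeR adjusted p 4.37e-24, with 17.8% of genes called). A UMI of Ccl2 was found in 85.5% (74.2 to 93.1) and 82.8% (71.3 to 91.1) of mast cells at median depths of 3441 and 3640 UMIs, in 45.0% and 39.0% of macrophages and in 5.13% and 3.03% of satellite glia. In each of these classes library 1 held more Ccl2 than library 2. Over all cells Ccl2 stood at 98.0 and 62.1 CPM. The immediate early sum given above had the same order of libraries in mast cells and satellite glia. It was nearly level in macrophages (15022 and 14938 CPM) and in the opposite order in fibroblasts (12765 and 13432 CPM). The part of this sum in the Ccl2 difference was not tested. Ccl2 (chr11:82035571-82037453) and Ccl11 (chr11:82057823-82062955) start 22.252 kb apart, with Ccl7 between them.

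Ccl4, an attractant of macrophages and T cells, was a macrophage gene shared with other leukocytes. Macrophages had 1010.3 and 976 CPM and 80.8% and 85.6% of the UMIs. Proliferating cells had 1140.0 and 321 CPM and overlapped them. Mast cells, with 84.3 and 410 CPM, overlapped both proliferating cells and dendritic cells, which had 284 and 183 CPM. T cells had 158 and 142 CPM. The test of macrophages against proliferating cells gave 0.89 ± 0.140 log2 units (edgeR adjusted p 1.21e-07), but 0.15 in library 1, 1.90 in library 2 and 0.71 with an adjusted p of 0.613 in DESeq2. The order of macrophages and proliferating cells is therefore not firm. Ccl4 molecules were concentrated: 37.2% and 39.2% of macrophages held a UMI, against 2.47% and 1.37% of satellite glia, and the top 10% held 78.0% and 77.5% of them.

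Cx3cl1 and Cx3cr1, the fractalkine ligand and its receptor, lay in different cells. Cx3cl1 stood at 52.0 and 58.0 CPM in blood endothelial cells, which held 69.9% and 75.2% of its UMIs. Dendritic cells followed with 12.1 and 5.96 CPM but overlapped proliferating cells, which had 4.07 and 14.0 CPM on 1 and 5 UMIs. Second place is therefore not settled. Blood endothelial cells exceeded dendritic cells by 2.30 ± 0.240 log2 units (edgeR adjusted p 1.12e-14, with 49.3% of genes called), 1.71 in library 1 and 2.80 in library 2. Neurons, a major source of this ligand in the brain, had 0 and 0.342 CPM, which is 0 and 1 UMI. A UMI of Cx3cl1 was found in 27.0% (24.3 to 29.9) and 30.5% (27.5 to 33.7) of endothelial cells against 1.20% and 0.851% of satellite glia. The gene lies at chr8:94772009-94782427.

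Cx3cr1 was the member most restricted to macrophages. Its level there was 671 and 686 CPM with 94.1% and 95.2% of its UMIs, and proliferating cells (167 and 142 CPM) and mast cells (77.2 and 49.0 CPM) followed without overlap. Macrophages exceeded proliferating cells by 2.46 ± 0.139 log2 units (edgeR adjusted p 1.17e-29). The receptor was found in 85.8% (83.6 to 87.8) and 84.8% (82.5 to 86.8) of macrophages and in 1.31% and 1.33% of satellite glia. In contrast to Cxcl2 and Ccl4, the top 10% of macrophages held 30.3% and 32.2% of its UMIs. The gene lies on the minus strand at chr9:119901616-120069879, and 5.31% of its 3′ end words also occur in other genes.

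Ackr3, a scavenger of Cxcl12, peaked outside the cells that make most Cxcl12. Lymphatic endothelial cells (35 and 29 cells) had 416 and 354 CPM, perineurial cells 114 and 96.0 CPM, vascular smooth muscle cells 89.2 and 71.8 CPM and fibroblasts 28.4 CPM in both libraries. None of these neighbours overlapped. By number of molecules, perineurial cells held 39.4% and 32.7% of the UMIs, fibroblasts 26.3% and 35.1% and lymphatic cells 6.05% and 4.98%. Lymphatic exceeded perineurial cells by 1.60 ± 0.194 log2 units (edgeR adjusted p 2.83e-11, with 13.9% of genes called). Blood endothelial cells, with 9.86 and 10.9 CPM, were lower than the rest of the tissue by 0.80 log2 units (-0.80 ± 0.163, adjusted p 8.35e-04). Ackr3 was found in 65.7% (47.8 to 80.9) and 62.1% (42.3 to 79.3) of lymphatic, 44.3% and 38.7% of perineurial and 4.38% and 3.03% of satellite glial cells. It lies at chr1:90203980-90216751.

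Pericytes and vascular smooth muscle cells, the 2 mural classes, had different sets of members. Of 10 tested, 4 were higher in pericytes and 1 in smooth muscle cells (8.76% of all genes were higher in pericytes and 9.17% lower). Ccl11 stood at 453 and 391 CPM in pericytes and 5.67 and 6.60 CPM in smooth muscle cells (5.91 ± 0.254, edgeR adjusted p 2.99e-39). Cxcl1 differed by 3.26 ± 0.298 (adjusted p 5.71e-17) and Cxcl12 by 1.97 ± 0.142 (adjusted p 7.70e-23). Ccl2 was higher in pericytes by 2.17 (adjusted p 0.00696), but not without the library block (adjusted p 0.118) or in DESeq2 (0.0614), and library 2 alone gave 1.48. Ackr3 went the other way, at 21.6 and 16.3 CPM in pericytes and 89.2 and 71.8 CPM in smooth muscle cells (-2.27 ± 0.266, adjusted p 5.25e-12). Among other ligands, Ccl19, which guides dendritic and T cells through Ccr7, stood at 85.1 and 79.9 CPM in pericytes and 2.43 and 7.42 CPM in smooth muscle cells.

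Fibroblasts made up 4 clusters that divided the stromal ligands between them. Cluster 10, led by C7, C3 and Pi16, genes of adventitial fibroblasts, held nearly all Cxcl13: 577 and 359 CPM, against at most 0.684 CPM in any other fibroblast cluster. It also carried Cxcl12 at 1155 and 1087 CPM, where the other clusters ranged from 65.7 to 175 CPM (3.40 ± 0.0628 log2 units above their mean). Of 9 members tested against the mean of the other clusters, 8 were called (29.7% of genes). Ackr3 was higher by 1.56 ± 0.159, at 57.6 and 64.9 CPM (edgeR adjusted p 2.39e-21). Ccl11 was lower by 1.43 log2 units (-1.43 ± 0.0620, adjusted p 1.13e-114), at 406 and 312 CPM. Ccl2 (-1.49, with 7.88 CPM in library 1 and 41.5 CPM in library 2) was lost in DESeq2 (adjusted p 0.256), and the libraries alone gave -3.40 and -0.29. Cxcl2 (1.54) and Cx3cr1 (2.39) rested on at most 26.3 CPM and were 0.30 and 1.49 in library 1 alone, and Cxcl1 was lower by 0.43 log2 units (-0.43, adjusted p 0.00134). Ccl19, also called higher here (3.64 ± 0.193), is, with Cxcl12 and Cxcl13, a ligand known from the stroma of lymphoid organs.

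Cluster 5, the largest, had 4 of 12 interferon-response markers up, with Ifit3, Isg15, Jun and Ier2 among its leading genes within fibroblasts. This cluster had the most of 3 inducible ligands among fibroblasts. It had Ccl11 at 1852 and 1419.6 CPM, Cxcl1 at 449 and 426 CPM and Ccl2 at 227 and 113 CPM. Against the mean of the other clusters these were higher by 1.59 ± 0.0457, 3.01 ± 0.0713 and 2.25 ± 0.0940 log2 units, with edgeR adjusted p-values of 2.14e-258 for Ccl11 and 1.71e-123 for Ccl2 and one too small for the program to write for Cxcl1. For Ccl2, library 1 alone gave 2.98 and library 2 alone 1.69. In all, 5 of 9 members were called, where 43.4% of genes were, and Cxcl12 was lower (-0.67 ± 0.0971, 127 and 129 CPM). The fifth was Cx3cl1, higher by 1.53 ± 0.504 (adjusted p 0.00761) on 4.93 and 3.08 CPM. Other ligands higher in the cluster were the Ccr2 ligand Ccl7 (2.61 ± 0.106) and the interferon-induced Cxcl9 and Cxcl10 (2.42 ± 0.169 for Cxcl10). Immediate early genes summed to 20596 and 20922 CPM in cluster 5 against 4184 to 10742 CPM in the other 3, and NF-kB response genes to 2682 and 2566 CPM against 1228 to 2055 CPM. Whether these sums and the chemokines share a source was not tested.

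Cluster 7, led by Bmp5, Dlk1 and Myoc, also had much Ccl11. Ccl11 stood at 1543 and 1225 CPM (1.16 ± 0.0476, edgeR adjusted p 1.27e-127), whereas Cxcl1 was at 26.0 and 40.1 CPM (-2.06 ± 0.125, adjusted p 4.40e-58). Of 9 members 5 were called (32.6% of genes). Cxcl12, at 174 and 175 CPM, did not pass (-0.18 ± 0.0925, adjusted p 0.117). Ackr3 (-0.95) and Cxcl2 (-2.25, on at most 2.74 CPM, and -1.38 in library 1 alone) were lower. The call of Ccl2 was not firm: -0.32 with an adjusted p of 0.0478, but 0.45 in library 1 alone and adjusted p-values of 0.143 to 0.838 under 4 other settings. Cluster 15, the shallowest with a median of 3425 UMIs, had 3 of 9 members lower, where 20.9% of genes were: Ccl11 (-1.33 ± 0.0771, at 514 and 476.5 CPM), Cxcl12 (-2.55 ± 0.153, at 67.9 and 65.7 CPM) and Cxcl1 (-0.52). The Cxcl1 call there was lost with library totals in place of TMM (-0.10, adjusted p 0.689) and in DESeq2 (adjusted p 0.0819).

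**Figure D2:**
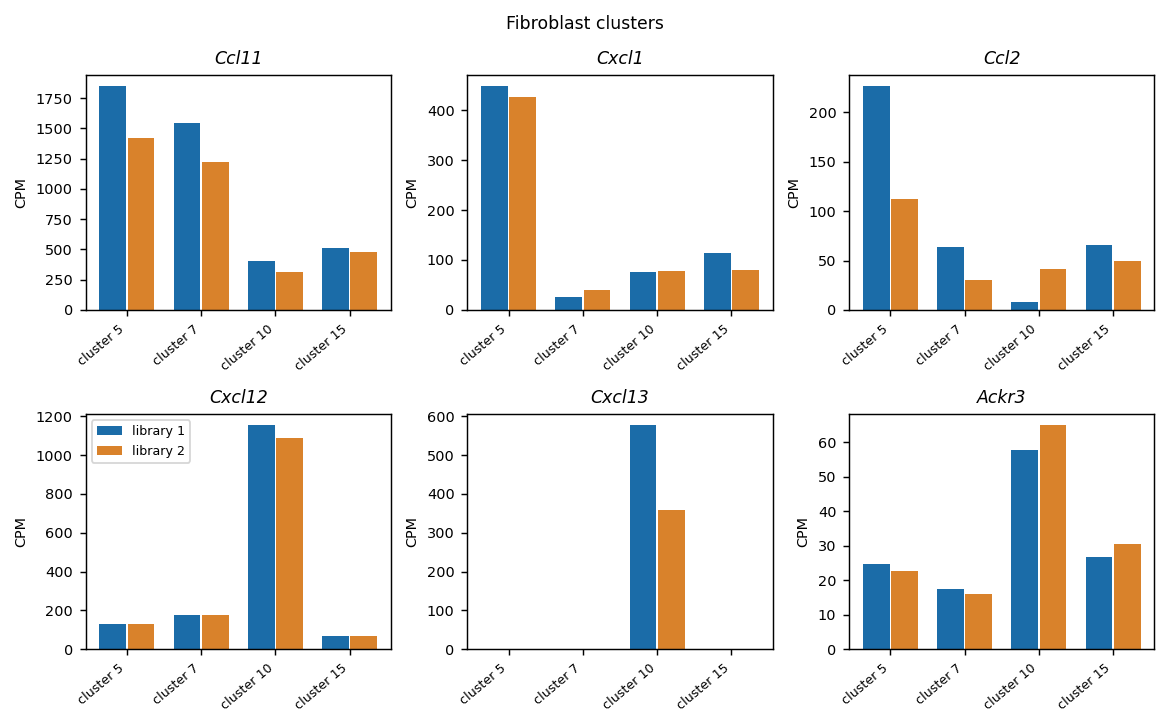
Levels (CPM, vertical axes from 0) of 6 genes in the 4 fibroblast clusters, with a bar for each library. Cxcl13, Cxcl12 and Ackr3 are highest in cluster 10, Cxcl1 and Ccl2 in cluster 5, and Ccl11 in clusters 5 and 7.

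Macrophage subclusters differed in their levels of Cxcl2, Ccl4, Cxcl1 and Ccl2. Subcluster 0 (341 and 298 cells, with Slc40a1, the iron exporter ferroportin, among its leading genes) had 133 and 159 CPM of Cxcl2 and 126 and 121 CPM of Ccl4. Subcluster 1, with MHC class II markers, had the most Ccl4, at 2318 and 1854 CPM, and 1662 and 1510.4 CPM of Cxcl2. Subcluster 2, led by Bmp2 and Ier3, had the most Cxcl2 (2659 and 2186 CPM) and Cxcl1 (376 and 163 CPM). Its Ccl2 level of 1034 and 634 CPM lay beside the 1003 and 628 CPM of subcluster 3, which carried interferon-response markers. Over these 4 subclusters Cx3cr1 ranged from 654 to 872 CPM. Their immediate early sums were 6554 and 6277 CPM in subcluster 0, 16299 and 15822 CPM in subcluster 1, 23739.8 and 22123 CPM in subcluster 2 and 12986 and 15472 CPM in subcluster 3. NF-kB response genes summed to 1447 and 1363 CPM in subcluster 0, 4973 and 5095 CPM in subcluster 1, 4907 and 4729.7 CPM in subcluster 2 and 2805 and 2954 CPM in subcluster 3, and the part of either list in the chemokine levels was not tested.

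A small population stood apart in the receptor. Macrophages with Lyve1 and Folr2 (63 cells in each library), markers of perivascular resident macrophages, had 33.4 and 44.1 CPM of Cx3cr1, below every other macrophage subcluster in both libraries. Against other macrophages Cx3cr1 was lower by 4.28 log2 units (-4.28 ± 0.215, edgeR adjusted p 1.16e-12) and Ccl4 was at 66.7 and 56.2 CPM (-4.17 ± 0.184, adjusted p 1.40e-13). Cxcl2, at 263 and 586 CPM, was lower by 1.76 log2 units (-1.76 ± 0.174, adjusted p 1.24e-07), with -2.49 in library 1 alone and -1.23 in library 2 alone. Ccl2, at 317 and 128 CPM, was also lower (-1.08 ± 0.165, adjusted p 5.42e-05), and Cxcl1 did not pass (-0.61 ± 0.242, adjusted p 0.127). Of 8 members tested 4 were lower, where 6.04% of genes were. Cxcl12 leaned higher (1.71 ± 0.567, edgeR adjusted p 0.0555) and Cxcl13 (-7.60, 0.0575) and Ccl11 (-2.40, 0.0729) lower without passing. The other macrophages included the 49 cells led by fibroblast genes such as Dcn, and the part of mixed droplets in these values was not tested. Calls in either direction rose to 7 with library totals, without the count filter or with all UMIs. The share of all genes called under those settings is not given here. Other ligands split: Ccl6, Ccl8, Ccl9, Ccl24 and Pf4 were higher in these cells, by 0.33 (Pf4) to 3.89 (Ccl6) log2 units, and Ccl3, Ccl7, Ccl12, Cxcl9, Cxcl10 and Cxcl16 were lower. Their immediate early genes summed to 17529 and 19003 CPM and their NF-kB response genes to 2244 and 2331 CPM, and the part of either list in these differences was not tested.

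**Figure D3:**
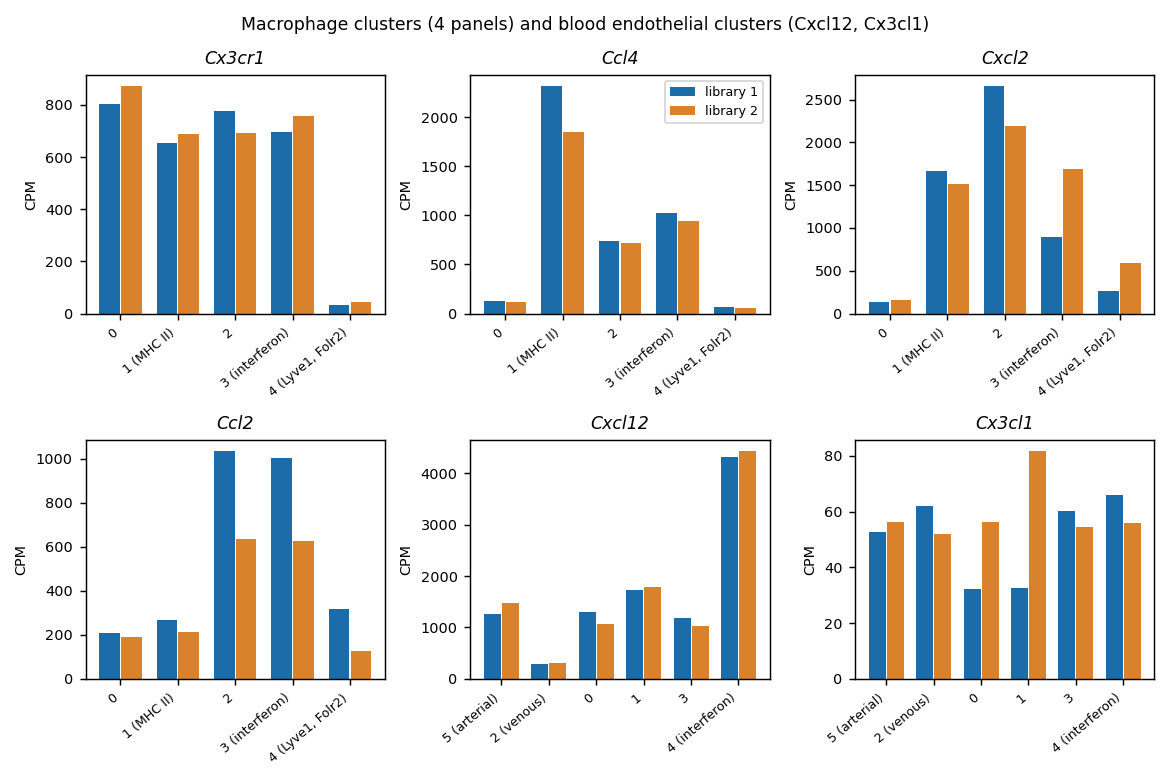
Levels (CPM, vertical axes from 0) of Cx3cr1, Ccl4, Cxcl2 and Ccl2 in 5 macrophage subclusters and of Cxcl12 and Cx3cl1 in 6 blood endothelial subclusters, with a bar for each library. Cx3cr1 is low only in the Lyve1 and Folr2 subcluster, and Cxcl12 runs from 282 CPM in venous cells to 4428 CPM in the interferon-marked subcluster.

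Within a class, some pairs of members were found in the same cells more often than others, and since cells are not replicates these shares carry no test. All are from cells thinned to 1500 UMIs. Among macrophages with a UMI of Cxcl1, 76.5% (65.8 to 85.2) in library 1 and 80.8% (67.5 to 90.4) in library 2 also held Cxcl2, against 26.2% and 26.0% of macrophages without Cxcl1. The intervals of cells with and without Cxcl1 were apart in both libraries. Cxcl2 was also found more often beside Ccl4 (46.4% and 42.1%, against 24.4% and 23.5%) and beside Ccl2 (40.1% and 42.4%, against 26.5% and 24.8%). Cx3cr1 was as frequent with Ccl4 (55.0% and 57.0%) as without it (52.7% and 57.0%), within overlapping intervals.

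In fibroblasts the pairs followed the clusters. Cells with a UMI of Ccl2 held Cxcl1 in 37.96% (28.8 to 47.8) and 33.0% (24.1 to 43.0), against 12.8% and 13.2% of the others. Of the 36 and 46 fibroblasts with Cxcl13, 61.1% and 71.7% held Cxcl12, against 25.7% and 24.4% without Cxcl13. Ccl11 showed the reverse, with 27.8% (14.2 to 45.2) and 32.6% (19.5 to 48.0) beside Cxcl13 and 74.1% and 67.6% elsewhere.

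**Figure D4:**
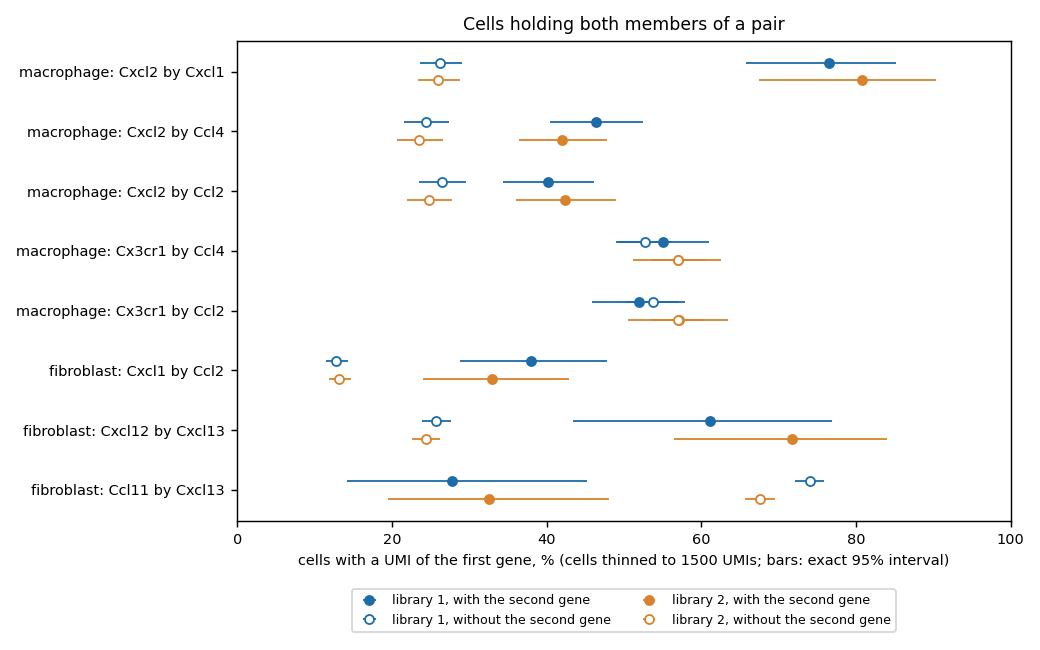
Share of cells with a UMI of the first gene (horizontal axis, %) among cells with (filled) and without (open) a UMI of the second gene, in macrophages and fibroblasts of each library, with exact 95% intervals. Cxcl2 is found in 76.5% and 80.8% of macrophages holding Cxcl1, and Ccl11 is less frequent in fibroblasts that hold Cxcl13.

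Cxcr2, Ccr3 and Cxcr5, receptors of 4 of the ligands, were barely detected. Cxcr2, the neutrophil receptor of Cxcl1 and Cxcl2, gave 5 and 3 UMIs in all cells, and Ccr3, the eosinophil receptor of Ccl11, gave 2 and 1. Cxcr5, the receptor of Cxcl13, had 2.63 and 2.06 CPM over all cells and reached at most 8.50 CPM in a class. No cluster was named for neutrophils. Ccr2, the receptor of Ccl2, was highest in dendritic cells (462 and 445 CPM) and T cells (473 and 259.9 CPM), whose ranges overlapped, with macrophages at 103 and 129.6 CPM. Among atypical receptors, lymphatic endothelial cells also led Ackr4 (219 and 417 CPM) and Ackr2 (63.5 and 90.6 CPM), and they had Ccl21a, the ligand that draws dendritic cells into lymph vessels, at 6403 and 5638 CPM.

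The neuron class carried transcripts of a receptor of Cxcl12. Cxcr4 stood at 35.1 and 21.9 CPM in neurons, higher than in the rest of the tissue by 0.66 ± 0.139 log2 units (edgeR adjusted p 7.2e-04), though proliferating cells (85.5 and 97.7 CPM), dendritic cells (73.3 and 43.0 CPM) and macrophages (60.0 and 48.9 CPM) had more. A UMI of Cxcr4 was found in 19.1% (16.6 to 21.9) and 12.97% (10.8 to 15.5) of neurons against 6.57% and 5.55% of satellite glia, and in 7.39% and 4.85% against 1.48% and 1.41% after thinning. Ackr1, a chemokine sink, was led by neurons at 27.7 and 33.1 CPM, above blood endothelial cells at 19.7 and 15.02 CPM, and was 2.72 ± 0.189 log2 units higher than in other cells. Subclusters of the neuron class had genes of other cells among their leading ones. These were Plvap, Emcn and Fabp7 in 307 cells, Mrc1 and F13a1 in 59, and Hbb-bs in 520 at a median of 1847.5 UMIs. The part of mixed droplets in the Cxcr4 and Ackr1 levels was not tested. In the comparison of Shox2-rich with Rxfp1-rich neurons, no member passed the count filter, and each gave 0 to 5 UMIs in a population and library. Where 11.7% of genes differed between these populations, members could not be compared at this depth.

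Satellite glia had one interferon-linked ligand outside the set. In the interferon-responding cluster (468 and 422 cells), 0 of 8 members tested were called by edgeR (6.34% of genes called), 1 had an unadjusted p below 0.05, and DESeq2 also called 0. Cxcl10, which attracts T cells through Cxcr3, stood at 320.3 and 333 CPM there and at 30.9 and 34.1 CPM in other satellite glia, higher by 3.36 ± 0.0824 log2 units.

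**Figure D5:**
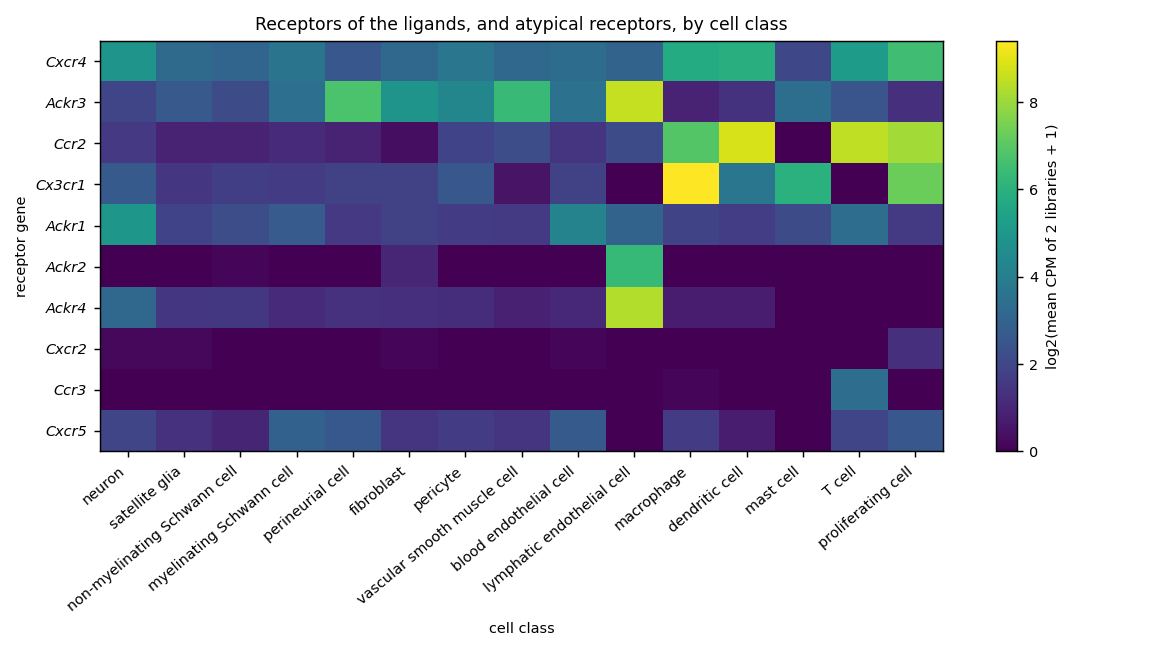
Levels of 10 receptor genes in 15 cell classes, as log2 of the mean CPM of both libraries plus 1 (colour). Cx3cr1 is brightest in macrophages, Ackr3, Ackr2 and Ackr4 in lymphatic endothelial cells, and Cxcr2, Ccr3 and Cxcr5 are dark nearly throughout, Ccr3 in T cells resting on 2 UMIs.

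For each member the genes of most similar pattern were found over 30 sums (15 classes by 2 libraries, which share libraries and are not independent) among 8365 candidates that reached 50 CPM in a class. Cx3cr1 was followed most closely, by Fcgr1 (Pearson r 0.96), Lilra5 and C1qc, and Ccl4 by Zfp981 (0.94), Gpr183 and Morc3. Ccl11 resembled Pdgfra (0.91), Clec3b and Ms4a4d, and Cxcl2 resembled Pik3ap1 (0.89), Gm46224 and Fgd2. Ccl2 lay nearest to Pla2g7 (0.88), Gm17268 and Sgpl1. Cxcl12 lay nearest to Adamts4 (0.86), Ebf1 and Fam13c, and Ackr3 to Tns1 (0.86), Cav1 and Cavin1. Cx3cl1 was closest to Zfp366 (0.83), Lipe and Ch25h. Cxcl13 and Cxcl1 had the loosest partners, Serpinf1 (0.78), Cdkn2b and C3 for Cxcl13 and Nrp1 (0.78), Gfpt2 and Enpp2 for Cxcl1.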

How the data were processed

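The authors deposited 2 tables of raw UMI counts per gene and cell barcode. Cell Ranger 6.1.2 and the mm10 assembly are named in the submitters' processing notes, while no source used here gives the annotation release or cell filters. From these counts, cells with at least 500 genes, 1000 UMIs and less than 20% mitochondrial UMIs were kept, and doublets marked by Scrublet were removed (561 and 625). UMIs were split at random with probability 0.5. One part gave clusters in scanpy 1.11.5 (3000 variable genes, 30 principal components, 15 neighbours, Leiden resolution 1, without chemokine and receptor genes), and the other gave all levels and tests. Glial cluster names rest on relative marker levels, and cluster 20 (134 cells) stayed unnamed.

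UMIs were summed per class and library and tested with edgeR 4.0.16 (quasi-likelihood, TMM, library as block, Benjamini-Hochberg adjustment over all genes tested, threshold 0.05) in R 4.3.3. A fit of 1 class against the rest has 4 sums and rests on the spread shared across genes. In several fits, among them those of the fibroblast clusters and of satellite glia, the shared spread replaced a gene's own spread between libraries completely. Very small p-values there reflect counting error and the shared spread. Script behaviour was tested on simulated counts. Shares were also computed in cells thinned to 1500 UMIs. The block pairs sums of the same library, which share their cells' preparation. All 10 members are named, other chemokine genes where they passed a test or partner a member, and the 3 most similar genes by correlation of log2(CPM + 1). The members and lists were chosen with earlier results of these data known. Alternatives were DESeq2 1.42.0, library totals, no count filter, no block, all UMIs, doublets kept, resolutions 0.5 and 2, chemokine genes kept in clustering, another split, depth limits and leaving out each library. One listed receptor is not reported here.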

Additional observations from a re-analysis of the deposited data

How the results depend on the processing

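Of the values that answer a comparison, 216 recomputed ones were counted as the same, 4 lost their call and 4 moved. For tests this meant the same direction and side of the threshold, and for counts of calls a value within a set fold. A single library gives no test and counted as the same if close to the full value relative to the spread between libraries. That rule is lenient, and levels recomputed from all UMIs or 1 library were entered as the same without a rule. The calls lost were all in DESeq2, for the step from the leading to the next class: Cxcl1 0.89 (adjusted p 0.0669), Cxcl2 2.41 (0.147), Cxcl13 3.02 (0.783) and Ccl4 0.71 (0.613). The cause was not tested. Members called in either direction in Lyve1 and Folr2 macrophages went from 4 to 7 with library totals, without the count filter and with all UMIs. With 1 library left out, a value with no test, the steps ranged from 2.04 to 2.17 for Cxcl12, 1.77 to 1.91 for Ccl11, 0.51 to 1.47 for Cxcl1, 2.53 to 3.54 for Cxcl13, 0.15 to 1.90 for Ccl4, 1.71 to 2.80 for Cx3cl1 and 1.57 to 1.62 for Ackr3. Ccl2 in fibroblast cluster 7 was -0.93 without replicate 1 and reversed without replicate 2 (0.45). Without the replicate block that pairs sums of a library, member calls against the rest were 20 higher and 86 lower, and the calls for Ccl2 in pericytes (adjusted p 0.118) and in fibroblast cluster 7 (0.374) were lost. Scaling by library totals moved the median of all genes by -0.55 (dendritic cells against the rest) to 0.42 (fibroblast cluster 15). It moved the split of calls by over 10 percentage points in 17 of 27 comparisons. Proliferating cells formed no class with doublets kept, at resolution 0.5 or with chemokine genes in clustering, so their comparisons have no value there. In another split the class of that name held 466 cells led by Lyz1, Cd209a and Retnla, against 60 cells in the main clusters. Steps against it under that setting concern another mix of cells. Small classes limit depth most, since 3 UMIs in the lymphatic class already amount to 21.2 and 27.2 CPM.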

Other observations

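Ligands outside the set filled in the myeloid classes. Macrophages held Pf4, a platelet-type CXC ligand also made by tissue macrophages, at 2258 and 2039 CPM, above proliferating cells at 232 and 421 CPM. Ccl12, a mouse ligand of Ccr2, stood at 1274 and 876 CPM in macrophages and at no more than 155 CPM in any other class and library. Ccl7, whose start lies 10.141 kb from that of Ccl2, had 490.5 and 339.7 CPM in macrophages, 302 and 312 CPM in mast cells and 83.3 and 69.9 CPM in fibroblasts, so the mast cells that led Ccl2 did not lead its neighbour. Dendritic cells led Ccl6, at 404 and 332 CPM against 143 and 142 CPM in macrophages, and held Ccr7, the receptor used for travel to lymph nodes, at 39.3 and 60.8 CPM.

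The neuron class, its mixed subclusters included, held a few family genes above the rest of the tissue at low levels. Ccl25 stood at 31.4 and 29.0 CPM (1.13 ± 0.139 log2 units above other cells, edgeR adjusted p 4.17e-06) and Ccl27a at 44.9 and 41.0 CPM (1.10 ± 0.113, adjusted p 6.17e-07). For both, the levels in myelinating Schwann cells or mast cells overlapped those of neurons in at least 1 library.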
